A study of Mus musculus with 37 samples.

Results

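Banp and Aff1 are a pair of genes for chromatin and transcription proteins, out of 18820 named genes measured in intact inguinal mammary glands of female BALB/c mice. Both were chosen by their measured values, because their levels differed between glands of mice given 30 cGy and 10 cGy of silicon ions. That difference is therefore described below with no test, and tests are given only for comparisons that the choice did not use. Banp had 1 probe set annotated with that gene alone, and Aff1 had 2, of which the one with the higher mean over the arrays stands for the gene.

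The 4 treatments were sham, gamma rays at 100 cGy, a sparsely ionizing radiation, and silicon ions (Si) of 350 MeV/amu, a densely ionizing one, at 10 or 30 cGy. All were exposed at 10 weeks of age, after the opposite inguinal gland had been cleared at a younger age, and intact glands were taken 1, 4 and 12 weeks later. Each of the 12 treatment-by-week groups had 3 arrays, except sham at week 4 with 4, which made 37 arrays. Mice of week 1 were killed where they had been irradiated and mice of the later weeks after transport back, so week 1 cannot be told apart from its place of collection, and age rose with the week. Nothing in the labels ties each replicate to a mouse of its own, so glands counted below are arrays. The p-values thus reflect only how far these samples spread, and that spread may be technical.

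Banp, also called SMAR1, is a nuclear protein with a BEN domain that binds DNA at matrix attachment regions and at CGCG elements of CpG island promoters, and it is known to interact with p53 and with histone deacetylase complexes. Aff1, also called AF4, is a scaffold of the super elongation complex, which brings the kinase P-TEFb to paused RNA polymerase II so that transcription can proceed. In human leukaemia AFF1 is a frequent fusion partner of KMT2A (MLL). The adult gland is a tree of epithelial ducts in a fat pad that also holds vessels, immune cells and a lymph node, and whole-gland RNA mixes all of them.

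In the RefSeq genes of GRCm38.p6, Banp spans chr8:121947972-122029260 and Aff1 spans chr5:103692362-103855322. Since both genes moved in the same direction, the RefSeq promoter table was searched, and it held 2 start sites of Aff1 and no entry for Banp. The stretch shown is the 250 bases before the upstream start site listed, chr5:103753912-103754161 on the plus strand, which lies within the span of the gene. It is shown because only Aff1 had an entry, so no promoter of Banp was searched, and capitals mark the GC boxes (GGGCGG).

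Aff1 promoter: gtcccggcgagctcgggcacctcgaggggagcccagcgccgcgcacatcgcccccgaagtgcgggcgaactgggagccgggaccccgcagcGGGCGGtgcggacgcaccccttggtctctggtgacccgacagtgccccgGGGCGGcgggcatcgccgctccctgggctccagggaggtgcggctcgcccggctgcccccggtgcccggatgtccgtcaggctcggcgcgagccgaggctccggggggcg

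This stretch held 35 CpG dinucleotides and 78.8% G or C, against medians of 6 and 52.4% over the same 250 bases of all 32851 windows in the table. Searched on both strands over the full windows, which also hold 50 bases after the start, GGGCGG occurred in both Aff1 windows and in 35.7% of all windows. The letters CTCGCGAG, the core of the CGCG element that Banp is known to bind, were in neither Aff1 window and in 0.919% of all windows. Neither Aff1 window held GAANNTTC (a heat shock element pair, 7.86% of all windows), CACGTG (an E-box, 7.15%), TGACGTCA (a cAMP response element, 1.79%) or CCAAT (37.4%). A match is only a match of letters, and an absent one says only that these letters are not in this window.

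Banp was highest at 1 week after 10 cGy Si and lowest at 12 weeks after 30 cGy Si, a span of 1.68 on the log2 scale between single arrays. At week 1 its log2 level was 7.95, 8.36 and 7.88 in the 3 glands given 10 cGy Si. In those given 30 cGy Si it was 7.18, 7.44 and 7.22, so the doses did not overlap. The sham glands of that week, at 7.06, 7.19 and 7.56, overlapped the 30 cGy glands and lay below all 10 cGy glands. The 3 gamma glands, at 7.81, 7.62 and 7.71, lay between the sham and the 10 cGy glands with no overlap on either side.

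At week 4 the order of the treatments was another one for Banp. Gamma glands were highest at 7.75, 7.70 and 7.79, and glands given 10 cGy Si followed at 7.58, 7.67 and 7.43. Sham glands were at 7.48, 7.31, 7.32 and 7.49 and overlapped the 10 cGy glands. The 3 glands given 30 cGy Si were at 7.12, 7.16 and 7.17, below every other array of the week. At week 12 all 4 treatments overlapped, with sham at 7.18, 7.23 and 7.05, gamma at 7.07, 7.51 and 7.47, 10 cGy Si at 7.06, 6.99 and 7.38, and 30 cGy Si at 6.68, 6.82 and 7.22.

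Aff1 had the same highest and lowest groups, over a narrower span of 1.11 between single arrays. At week 1 its log2 level was 8.78, 9.12 and 9.06 after 10 cGy Si and 8.62, 8.54 and 8.44 after 30 cGy Si. Sham glands were at 8.51, 8.61 and 8.65 and overlapped the 30 cGy glands. Gamma glands, at 8.82, 8.85 and 8.75, were all above sham and within reach of the lowest 10 cGy gland.

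At week 4 the silicon doses stood on opposite sides of sham in Aff1. The level was 8.67, 8.83 and 8.55 after 10 cGy Si and 8.23, 8.24 and 8.23 after 30 cGy Si. Sham glands, at 8.49, 8.50, 8.35 and 8.45, lay between the doses without overlap, and gamma glands at 8.50, 8.46 and 8.42 overlapped the sham glands. At week 12 the doses overlapped, at 8.18, 8.06 and 8.14 after 10 cGy and 8.16, 8.002 and 8.04 after 30 cGy. Sham glands of week 12 were at 8.15, 8.36 and 8.16 and gamma glands at 8.33, 8.29 and 8.24, with every gamma gland above every silicon gland.

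**Figure D1:**
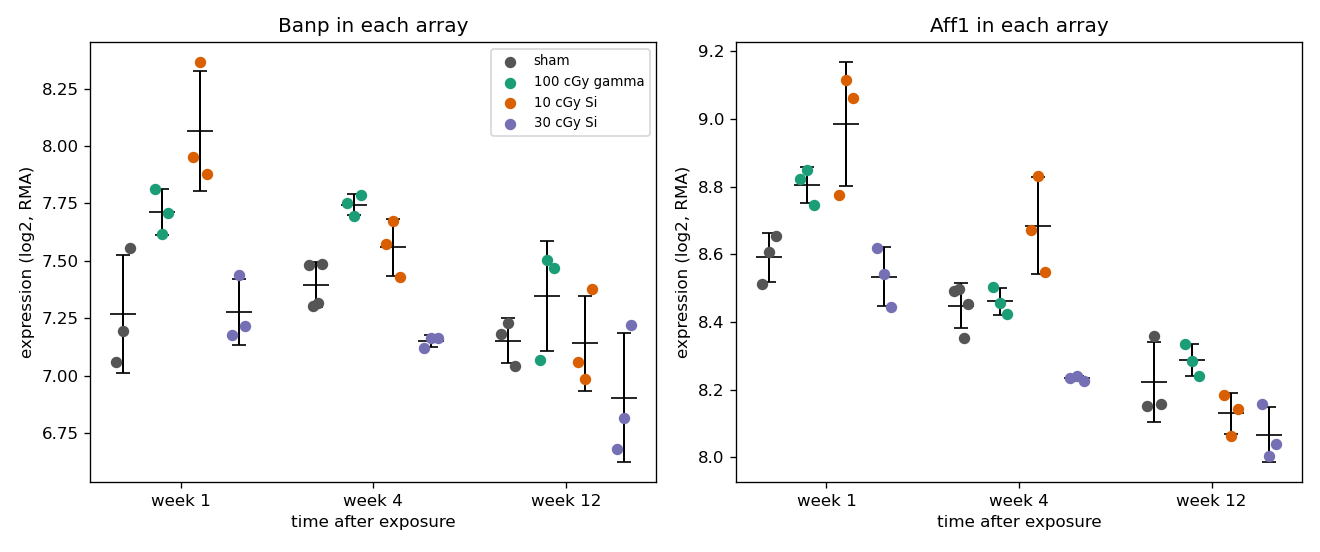
Level of Banp (left) and Aff1 (right) in each of 37 arrays, as deposited log2 values, by week and treatment, with a bar at the mean ± SD of each group (n = 3, and 4 for sham at week 4). The 10 cGy Si points stand above the 30 cGy Si points at weeks 1 and 4 and overlap them at week 12, and both genes are lowest at week 12.

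The dose difference that chose the genes was thus carried by weeks 1 and 4. Over the 3 weeks Banp was 0.48 ± 0.083 (SE) lower on the log2 scale after 30 cGy than after 10 cGy, a difference of 1.39-fold (means 7.11 and 7.59, 9 arrays each). By week the difference was −0.79, −0.41 and −0.24 at weeks 1, 4 and 12. Aff1 was 0.32 ± 0.050 lower, or 1.25-fold (8.28 and 8.60), with −0.45, −0.45 and −0.063 by week. Both genes kept the sign in all 3 weeks, which the choice on the mean over weeks favours, and the week 12 value of Aff1 was smaller than its SE of 0.086.

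In limma over all 13174 genes tested, 3 genes passed between the doses (0.0228%), and the third besides Banp and Aff1 was Zbtb16, a zinc finger repressor, at −1.09 ± 0.18. The nearest genes outside the threshold were Hsph1, a heat shock chaperone (−0.69 ± 0.15), Mapre2, a microtubule end protein (−0.38 ± 0.081), and Foxo1, a forkhead factor (−0.33 ± 0.070). A choice by such a threshold takes large differences and small spreads alike. The spread within groups was smaller than that of Aff1 (SD 0.0913) in only 1.61% of the genes tested and smaller than that of Banp (SD 0.176) in 38.5%. The same spread enters the tests below.

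Against sham over the 3 weeks, the doses lay on either side, and these values too are descriptions. Banp was 0.31 ± 0.081 above sham after 10 cGy and −0.16 ± 0.081 from it after 30 cGy. At week 1 alone the 10 cGy glands were 0.79 ± 0.14 above sham, a 1.73-fold difference, and the 30 cGy glands 0.0069 ± 0.14. Aff1 was 0.18 ± 0.049 above sham after 10 cGy and −0.14 ± 0.049 from it after 30 cGy. The choice of genes that differed between the doses favours means on either side of sham, so no dose relation is drawn from them. For Banp after 30 cGy over the 3 weeks, the 95% interval ran from −0.33 to 0.0036, so its side was not secured. At week 12 both doses had means below sham, with the larger distance after 30 cGy. Aff1 was then at −0.093 after 10 cGy and −0.16 after 30 cGy, and Banp at −0.012 and −0.25. The comparisons with sham share the sham arrays. Lymphocyte markers also stood lower after 30 than after 10 cGy without a call, with 0 of 7 T cell and 0 of 7 B cell markers above 0 and medians of −0.84 and −0.89. Skeletal muscle markers did so too, with 0 of 9 above 0, no call and a median of −0.47, which was −1.48 at week 4. At week 1, B cell markers averaged 4.62 to 8.36 in single glands after 10 cGy and 3.77 to 5.22 after 30 cGy. With lymphocyte, muscle, epithelial and brown adipocyte marker levels of each array as covariates, the dose difference was −0.50 in Banp and −0.32 in Aff1.

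Levels were then put in order over the 12 groups. For Banp, the gap between neighbours in that order was under the larger of their SDs in 8 of 11 pairs, and 10 of 11 pairs overlapped. The exception was the step from 10 cGy Si at week 1 (8.07 ± 0.26, SD, n = 3) to gamma at week 4 (7.74 ± 0.045). For Aff1, 9 of 11 gaps were under the larger SD and 10 of 11 pairs overlapped, and the exception was the step from sham at week 4 (8.45 ± 0.067, n = 4) to gamma at week 12 (8.29 ± 0.047, n = 3). By group mean, every group of week 1 stood above that step, and every group of week 12 and the 30 cGy Si glands of week 4 below it. Single arrays still overlapped across it, as the lowest sham array of week 4 was at 8.352 and the highest of week 12 at 8.358.

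The second Aff1 probe set was at 5.87 to 6.81 over the arrays and repeated the pattern of the first in part. At week 4 it read 6.74, 6.81 and 6.68 after 10 cGy Si and 6.60, 6.15 and 6.05 after 30 cGy Si, without overlap. At week 1 it read 6.16, 6.78 and 6.53 after 10 cGy and 6.43, 6.28 and 6.29 after 30 cGy, which overlapped. The dose differences of this probe set were −0.16, −0.47 and 0.015 at weeks 1, 4 and 12, and −0.21 over the weeks. Its difference between weeks 4 and 12, −0.27, was close to that of the first probe set given below, and its gamma glands also lay above sham at week 1, by 0.18. From week 1 to week 4 it differed by 0.065, opposite in sign to the first, and gamma stood at −0.25 from sham at week 4. Its correlation with the first probe set was 0.54 over 37 arrays (Spearman 0.54) and 0.42 after the group means had been taken off.

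**Figure D2:**
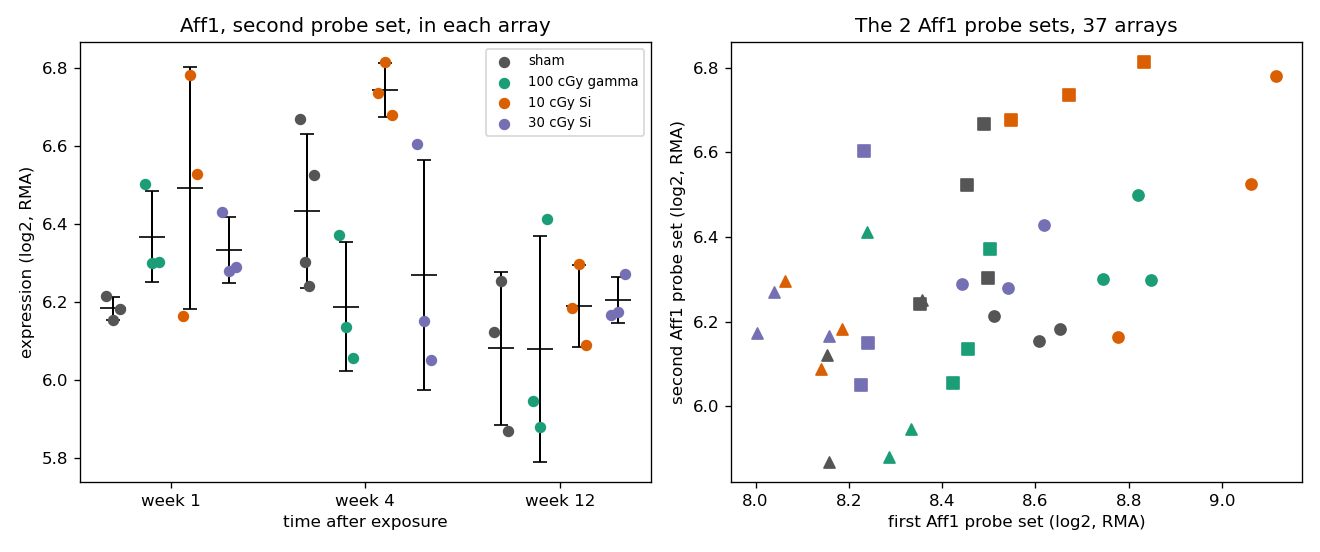
Left, the second Aff1 probe set in each array (log2, RMA) by week and treatment, with the mean ± SD of each group. Right, the second against the first Aff1 probe set over 37 arrays, coloured by treatment as on the left, with circles for week 1, squares for week 4 and triangles for week 12. The 10 cGy Si arrays of week 4 and replicate 2 of week 1 stand at the top of both panels. The arrays of week 1 read 6.15 to 6.78 in the second probe set, whose full range was 5.87 to 6.81.

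Time after exposure was the comparison in which both genes changed. It averages the 4 treatments, so both silicon doses enter with the same weight and their difference cancels. Aff1 fell by 0.27 ± 0.042 from week 1 to week 4 (means 8.73 and 8.46, 12 and 13 arrays, adjusted p = 2.2e-05). It fell by a further 0.28 ± 0.042 from week 4 to week 12 (to 8.18, 12 arrays, adjusted p = 0.00077), and from week 1 to week 12 the change was 1.47-fold (adjusted p = 2.85e-10). All 12 arrays of week 12, at 8.002 to 8.36, lay below all 12 arrays of week 1, at 8.44 to 9.12. The share of all genes with such a separation was not counted.

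Banp fell later than Aff1 by these calls, though the difference between the genes was not tested. From week 4 to week 12 Banp fell by 0.33 ± 0.071 (means 7.46 and 7.14, adjusted p = 0.0142), and from week 1 to week 12 by 0.44 ± 0.072, or 1.36-fold (adjusted p = 2.07e-05). Between weeks 1 and 4 its difference was −0.12 ± 0.071 with a 95% interval from −0.26 to 0.026 (adjusted p = 0.23). Its arrays overlapped, at 7.06 to 8.36 in week 1, 7.12 to 7.79 in week 4 and 6.68 to 7.51 in week 12.

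Of all genes tested, limma called 14.8% lower at week 4 than at week 1, 0.941% lower at week 12 than at week 4 and 20.4% lower at week 12 than at week 1. Both genes were thus among few that fell between weeks 4 and 12, whereas a fall from week 1 was common. In whole-gland RNA, fewer cells that express a gene and less RNA per cell cannot be told apart. Of 7 white adipocyte markers, 4 also fell from week 1 to week 4, among them Plin1, a lipid droplet protein, by 0.56 ± 0.071, and Lipe, hormone-sensitive lipase, by 0.47 ± 0.055 (adjusted p = 1.25e-06 and 3.74e-07), and none was called from week 4 to week 12. Their mean level per array correlated with Aff1 at 0.60 and with Banp at 0.34 over 37 arrays that share the weeks. Of macrophage markers, 3 of 8 rose from week 1 to week 4, and of mast cell markers 4 of 6, where 11% of all genes were called higher. The part of adipocytes, macrophages and mast cells in the fall of Aff1 was not tested.

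Markers of other cells also stood lower at week 12 than at week 4, with no call. None of 9 skeletal muscle, 7 T cell, 7 B cell and 8 macrophage markers lay above 0 there, with medians of −1.44, −0.67, −0.77 and −0.16. At week 12 against week 1, 2 of 9 muscle markers fell (22.2%, near the 20.4% of all genes) and the median was −1.76. With lymphocyte, muscle, epithelial and brown adipocyte marker levels as covariates, Aff1 was at −0.26 between weeks 1 and 4, and Banp at −0.34 and Aff1 at −0.29 between weeks 4 and 12, all called (adjusted p = 0.000491, 0.0173 and 0.00252). With the second probe set averaged in, Aff1 differed by −0.10 between weeks 1 and 4 and was no longer called (adjusted p = 0.144), since that probe set alone differed by 0.065 there and by −0.27 from week 4 to week 12.

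In groups with no silicon array, the decline of Aff1 from week 1 was seen as well in its first probe set. With the sham and gamma groups alone, Aff1 fell by 0.24 from week 1 to week 4 (adjusted p = 0.00654). It differed by −0.20 from week 4 to week 12 (adjusted p = 0.284) and Banp by −0.32 (adjusted p = 0.302), neither called, and Banp was 0.079 higher at week 4 than at week 1 (adjusted p = 0.671). In sham glands alone, Aff1 fell by 0.37 ± 0.086 from week 1 to week 12 (3 arrays each, adjusted p = 0.0139), a comparison in which 3.47% of genes were called lower. Banp differed there by −0.12 ± 0.14 (adjusted p = 0.696). The second Aff1 probe set differed in sham by −0.10 from week 1 to week 12 and by 0.25 from week 1 to week 4.

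The other sham comparisons called neither gene. Between weeks 1 and 4 in sham, where 3.95% of genes were called lower, Aff1 differed by −0.14 ± 0.081 (adjusted p = 0.325) and Banp by 0.13 ± 0.13 (adjusted p = 0.652). Between weeks 4 and 12 in sham, limma called 0% of genes lower and 0 higher, with 805 at an unadjusted p under 0.05. Aff1 differed by −0.23 ± 0.081 (adjusted p = 0.772) and Banp by −0.24 ± 0.13 (adjusted p = 0.84).

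**Figure D3:**
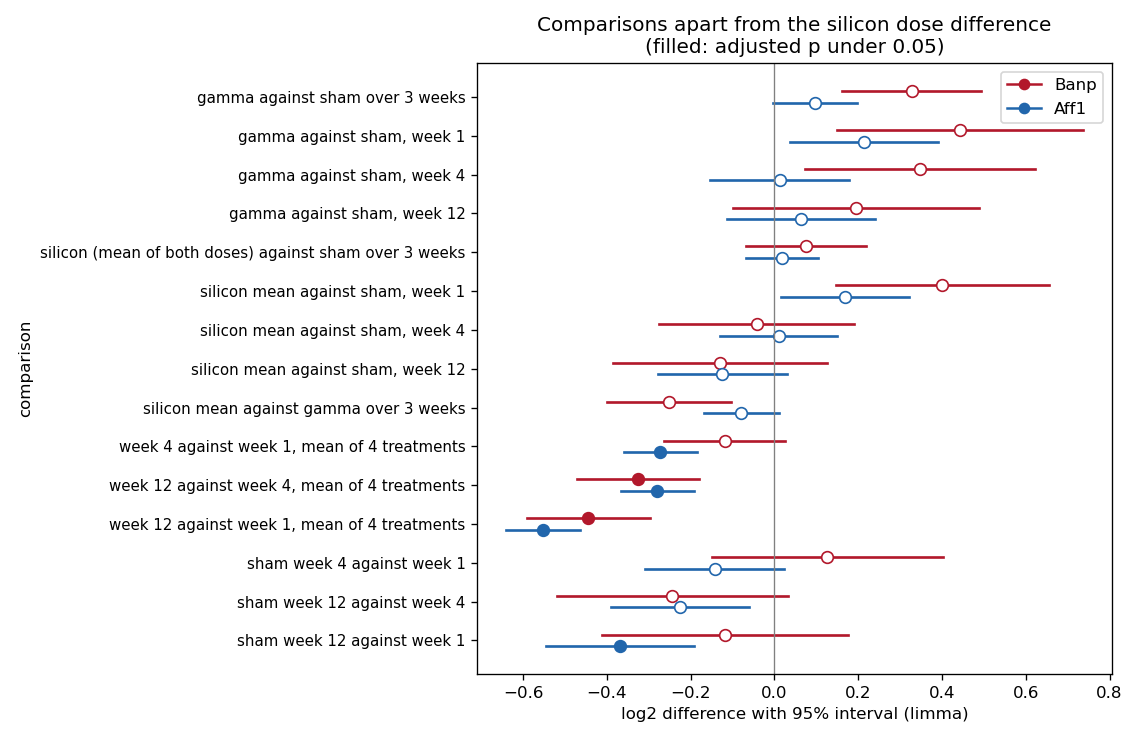
Log2 differences of Banp (red) and Aff1 (blue) with 95% intervals from limma, for the comparisons that do not use the silicon dose difference, with filled points where the adjusted p is under 0.05. The filled points are Aff1 at week 4 against week 1 and both genes at week 12 against weeks 4 and 1 over the 4 treatments, and Aff1 in sham at week 12 against week 1, all below 0.

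Gamma rays are the independent exposure, since no silicon array enters their comparison with sham. Banp was higher in gamma than in sham glands by 0.33 ± 0.081 over the 3 weeks, a 1.26-fold difference (means 7.60 and 7.27, 9 and 10 arrays), with a 95% interval from 0.16 to 0.49. The difference did not pass the adjustment over all genes in limma (adjusted p = 0.605, unadjusted p = 0.000371). Here 0% of genes were called, and 706 had an unadjusted p under 0.05. All gamma glands lay above all sham glands of their week at weeks 1 and 4, and 2 of 3 did at week 12. How many of all genes separate in this way was not counted, so the separation adds nothing to the test. Markers of some other cells stood higher after gamma too, with no call, in 7 of 7 for basal epithelium, 9 of 9 for skeletal muscle and 7 of 7 for fibroblasts (medians 0.28, 0.34 and 0.12). Of all genes, 57.0% lay above 0. So did 6 of 8 luminal, 6 of 7 white adipocyte, 7 of 8 macrophage and 5 of 6 mast cell markers. Fewer did among endothelium (3 of 7), T cell (1 of 7), B cell (1 of 7) and brown adipocyte markers (0 of 5). With lymphocyte, muscle, epithelial and brown adipocyte marker levels as covariates Banp was at 0.35 (adjusted p = 0.338), and the part of fibroblasts was not tested. By week the values of Banp were 0.44 ± 0.14, 0.35 ± 0.13 and 0.19 ± 0.14 (adjusted p = 0.408, 0.798 and 1.0).

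Aff1 differed less after gamma, by 0.097 ± 0.049 over the weeks (means 8.52 and 8.42, 95% interval −0.0030 to 0.20, adjusted p = 0.927). With the mean of its probe sets it was 0.038, and the second probe set alone was at −0.021. By week it was 0.21 ± 0.086, 0.013 ± 0.081 and 0.064 ± 0.086 (adjusted p = 0.536, 0.972 and 1.0). The gamma glands did not overlap sham at week 1 and did at weeks 4 and 12. Limma called 0.0228% of genes in gamma against sham at week 1 and 0% at weeks 4 and 12, where 732 and 372 genes had an unadjusted p under 0.05.

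The mean of the silicon doses is independent of their difference and was set against sham in the same way. Over 3 weeks it called 0% of genes, with 1533 at an unadjusted p under 0.05. Banp differed by 0.076 ± 0.070 (means 7.35 and 7.27, with 9 arrays per dose and 10 of sham, 95% interval −0.067 to 0.22, adjusted p = 0.695). Aff1 differed by 0.018 ± 0.042 (8.44 and 8.42, 95% interval −0.068 to 0.10, adjusted p = 0.894), but by 0.078 with the mean of its probe sets and by −0.0031 after quantile normalization. The opposite sides of sham taken by the doses met in these means.

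At week 1 alone the silicon mean stood above sham in both genes, without passing the adjustment. Banp differed by 0.40 ± 0.12 (adjusted p = 0.351) and Aff1 by 0.17 ± 0.075 (adjusted p = 0.483), in a comparison that called 0.0455% of genes. At weeks 4 and 12, where 0% of genes were called and 885 and 727 had an unadjusted p under 0.05, Banp differed by −0.043 ± 0.11 and −0.13 ± 0.12 (adjusted p = 0.935 and 0.969). Aff1 differed by 0.010 ± 0.068 and −0.12 ± 0.075 (adjusted p = 0.971 and 0.917). The silicon mean against gamma over 3 weeks called 0% of genes (1235 had an unadjusted p under 0.05). Banp was at −0.25 ± 0.072 (adjusted p = 0.416) and Aff1 at −0.079 ± 0.043 (adjusted p = 0.594).

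Whether these effects differed between weeks was tested with limma's moderated F test, which called 0% of genes for gamma and 0% for the silicon mean, with 726 and 689 genes at an unadjusted p under 0.05. For the silicon mean, Banp had an adjusted p of 0.921 (unadjusted p = 0.011) and Aff1 an adjusted p of 0.921 (unadjusted p = 0.0335). For gamma, the adjusted p was 0.912 for Banp and 0.879 for Aff1. The larger values at week 1 were thus not separated from those of the later weeks after adjustment.

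Banp and Aff1 varied together over the arrays. Their Pearson correlation was 0.79 (Spearman 0.73) over 37 arrays, which share the 12 groups and their weeks and doses, and it was 0.25 after the group means had been taken off. Aff1 held place 3 by correlation with Banp, and Banp place 30 by correlation with Aff1, among the 12560 genes left when predicted genes, small RNAs and receptor segments are passed over. Both genes were chosen for the same difference between the silicon doses, which by itself raises their correlation and these places. The arrays of 10 cGy Si at week 1 were high in both genes, and those of 30 cGy Si at week 12 were low in both.

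**Figure D4:**
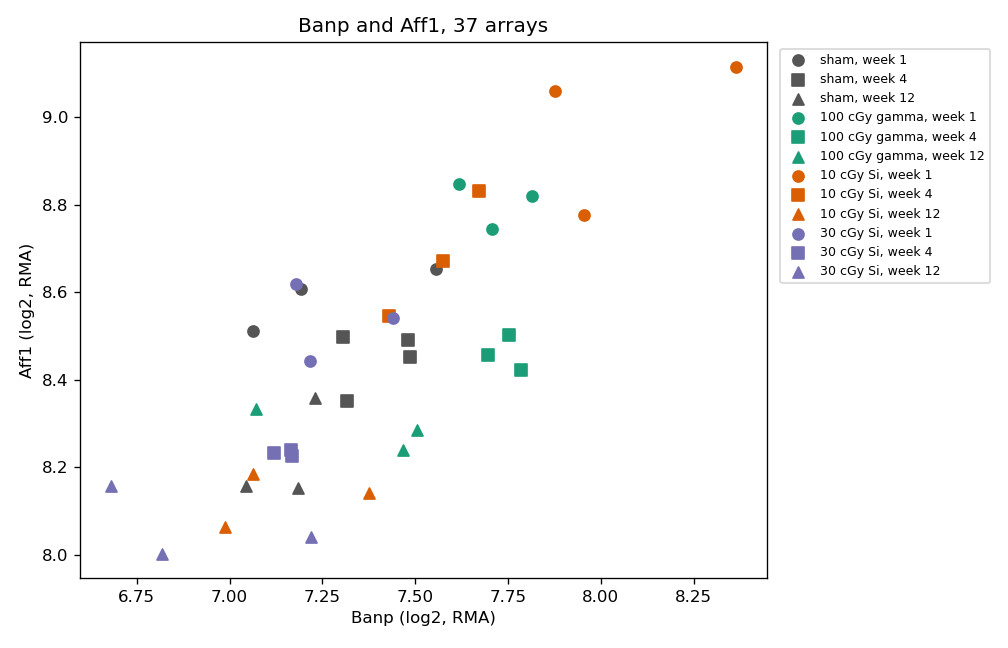
Aff1 against Banp (log2, RMA) in 37 arrays, coloured by treatment, with circles for week 1, squares for week 4 and triangles for week 12. The 10 cGy Si arrays of week 1 lie at the upper right and the 30 cGy Si arrays of week 12 at the lower left, and the gamma arrays of week 4 lie to the right of the sham arrays at like Aff1 levels.

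The genes most like Banp over the 37 arrays were Herpud1, which acts in degradation of proteins from the endoplasmic reticulum (r = 0.83), Mtmr4, a lipid phosphatase (0.79), Aff1 (0.79), Zbtb16 (0.78) and Dnajb1, a co-chaperone of Hsp70 (0.76). Within groups the correlation was 0.71 for Dnajb1 and 0.44 for Herpud1, but 0.11 for Zbtb16. The likeness of Zbtb16 to Banp lay between groups, and Zbtb16 passed the same threshold between the silicon doses. The lowest values were those of Selp, the adhesion molecule P-selectin (−0.69), Tsnax (−0.69) and Tgfb2, a growth factor (−0.67).

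The genes most like Aff1 were Foxo1 (r = 0.88), Garre1 (0.88), Tns2, a focal adhesion protein (0.88), Timp3, an inhibitor of matrix proteases (0.86), and the kinase gene Map3k6 (0.86). Within groups they correlated with Aff1 at 0.58, 0.34, 0.49, 0.30 and 0.53. All 5 were lower after 30 than after 10 cGy Si, by 0.23 to 0.41, and all 5 lower at week 4 than at week 1, by 0.18 to 0.59, as a high correlation with Aff1 would bring. The lowest were Snrpe, a splicing protein (−0.80), Sqle, an enzyme of sterol synthesis (−0.78), and H1f2, a linker histone (−0.77).

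The other genes of the complexes in which these proteins act were followed from lists, each taken without Banp and Aff1. In the AFF family, none of 3 tested relatives was called between the silicon doses. Aff3 was at −0.44 ± 0.21 (adjusted p = 0.754), Aff2 at −0.072 ± 0.11 (adjusted p = 0.904), and the median was −0.072, against 0.0077 over all genes tested. From week 1 to week 12, where 20.4% of genes were called lower, Aff3 fell by 0.56 ± 0.18 (adjusted p = 0.0159). In the super elongation complex, 0 of 10 tested members were called between the doses and 7 lay above 0 (70.0%, against 52.8% of all genes), with a median of 0.027. Mllt1, a reader subunit, was at 0.17 ± 0.084 and Mllt3, its close relative, at −0.15 ± 0.11.

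Of the same 10 members, 3 fell and 1 rose from week 1 to week 4, where 14.8% of all genes were called lower and 11% higher. Ell, an elongation factor, fell by 0.25 ± 0.054 (adjusted p = 0.000888), Mllt1 by 0.24 ± 0.071 (adjusted p = 0.0142) and Ell2 by 0.18 ± 0.067 (adjusted p = 0.0431). Ccnt2, a cyclin partner of Cdk9, rose by 0.17 ± 0.038 (adjusted p = 0.00173). None of the 10 was called from week 4 to week 12, and 2 lay above 0 with a median of −0.041. In that comparison 0.941% of all genes were called lower.

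Factors around P-TEFb and paused polymerase gave no call among 14 tested between the silicon doses, with a median of 0.010 and Nelfe, a subunit of the pausing factor NELF, at 0.26 ± 0.071 (adjusted p = 0.349) and Larp7, which binds the inhibitory RNA of P-TEFb, at 0.18 ± 0.079 (adjusted p = 0.742). From week 1 to week 4, 2 of the 14 fell (14.3%, near the 14.8% of all genes), Nelfa by 0.37 ± 0.051 (adjusted p = 4.83e-06) and Nelfe by 0.17 ± 0.060 (adjusted p = 0.0421). Ctr9 and Cdc73 of the PAF complex and Hexim1, an inhibitor of P-TEFb, rose (3 of 14, or 21.4%, against 11% of all genes), by 0.28 ± 0.098, 0.23 ± 0.042 and 0.21 ± 0.070 (adjusted p = 0.0365, 0.000174 and 0.0296). Between weeks 4 and 12 only Mepce, which caps the inhibitory RNA of P-TEFb, was called among them, and it fell (1 of 14, against 0.941% of all genes) by 0.25 ± 0.058 (adjusted p = 0.026).

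Among MLL and DOT1L partners, 0 of 10 were called between the doses, with a median of −0.061. Kmt2a, the methyltransferase whose gene is fused to AFF1 in leukaemia, was at −0.18 ± 0.075 (adjusted p = 0.703) and Mllt10, a partner of DOT1L, at −0.13 ± 0.055 (adjusted p = 0.698). From week 1 to week 4, 2 of the 10 fell and 1 rose (20% and 10%, against 14.8% and 11% of all genes). Dot1l, which methylates histone H3 in transcribed genes, fell by 0.30 ± 0.054 from week 1 to week 4 (adjusted p = 0.000146). Mllt6 fell by 0.21 ± 0.061 (adjusted p = 0.0128), and Ash2l, a core subunit of MLL complexes, rose by 0.26 ± 0.051 (adjusted p = 0.000311).

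For Banp, the relatives with a BEN domain gave 0 calls among 6 tested between the doses, with a median of 0.066 and Bend3 at 0.29 ± 0.083 (adjusted p = 0.445), opposite in sign to Banp. At week 4 against week 1, 2 of the 6 fell and 1 rose (33.3% and 16.7%, against 14.8% and 11% of all genes). The transcriptional repressors Nacc2 and Nacc1 fell, by 0.42 ± 0.062 and 0.30 ± 0.054 (adjusted p = 9.69e-06 and 0.000138), and Bend7 rose by 0.19 ± 0.069 (adjusted p = 0.0426). Other binders of matrix attachment regions also gave 0 calls among 10 between the doses, with 2 above 0 (20.0%, against 52.8% of all genes) and a median of −0.057. Satb1, a chromatin organiser of lymphocytes, was at −0.63 ± 0.35 (adjusted p = 0.793) and Nucks1, a nuclear phosphoprotein, at 0.12 ± 0.055 (adjusted p = 0.729). Between weeks 1 and 4, 3 of the 10 rose (30%, against 11% of all genes), Matr3 by 0.32 ± 0.059, the insulator protein gene Ctcf by 0.27 ± 0.059 and Hnrnpu by 0.14 ± 0.051 (adjusted p = 0.00014, 0.00112 and 0.0419). In the same comparison 2 of the 10 fell (20%, against 14.8%), where Arid3a fell by 0.19 ± 0.070 and Cux1 by 0.18 ± 0.043 (adjusted p = 0.0474 and 0.0024). Nucks1 rose from week 4 to week 12 by 0.24 ± 0.047 (adjusted p = 0.00776), the 1 of the 10 called there, where 92 of 13174 genes were called higher.

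The p53 list gave 0 calls among 14 tested after gamma over the 3 weeks, with 13 above 0 (92.9%, against 57.0% of all genes) and a median of 0.088 against 0.016. Eda2r, of the TNF receptor family, was at 0.36 ± 0.12 and Cdkn1a, the cell-cycle inhibitor p21, at 0.35 ± 0.18 (adjusted p = 0.801 and 0.928). Between the silicon doses, 6 of the 14 lay above 0 with a median of −0.031. From week 1 to week 4, 2 of the 14 fell and 1 rose (14.3% and 7.14%, against 14.8% and 11% of all genes). Phlda3, an inhibitor of Akt, fell by 0.57 ± 0.15 and the kinase gene Hipk2 by 0.40 ± 0.080 (adjusted p = 0.00406 and 0.000416), while Trp53inp1 rose by 0.25 ± 0.078 (adjusted p = 0.0174). Trp53inp1, a stress protein induced by p53, fell by 0.46 ± 0.078 from week 4 to week 12 (adjusted p = 0.00317), when Banp also fell. It was the 1 of the 14 called there, where 0.941% of all genes were called lower.

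The Sin3 and histone deacetylase list, a corepressor known to work with Banp, gave 0 calls among 10 between the doses, with 2 above 0 and a median of −0.041. Arid4a, a subunit of Sin3 complexes, was at −0.25 ± 0.089 (adjusted p = 0.628). At week 4 against week 1, 3 of the 10 rose and 1 fell (30% and 10%, against 11% and 14.8% of all genes). The histone binder Rbbp7 rose by 0.30 ± 0.068, the deacetylase Hdac2 by 0.26 ± 0.064 and Sap18 by 0.18 ± 0.068 (adjusted p = 0.00141, 0.0032 and 0.0459). Hdac1, the close relative of Hdac2, fell by 0.26 ± 0.046 (adjusted p = 9.64e-05). No member of this list was called from week 4 to week 12.

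**Figure D5:**
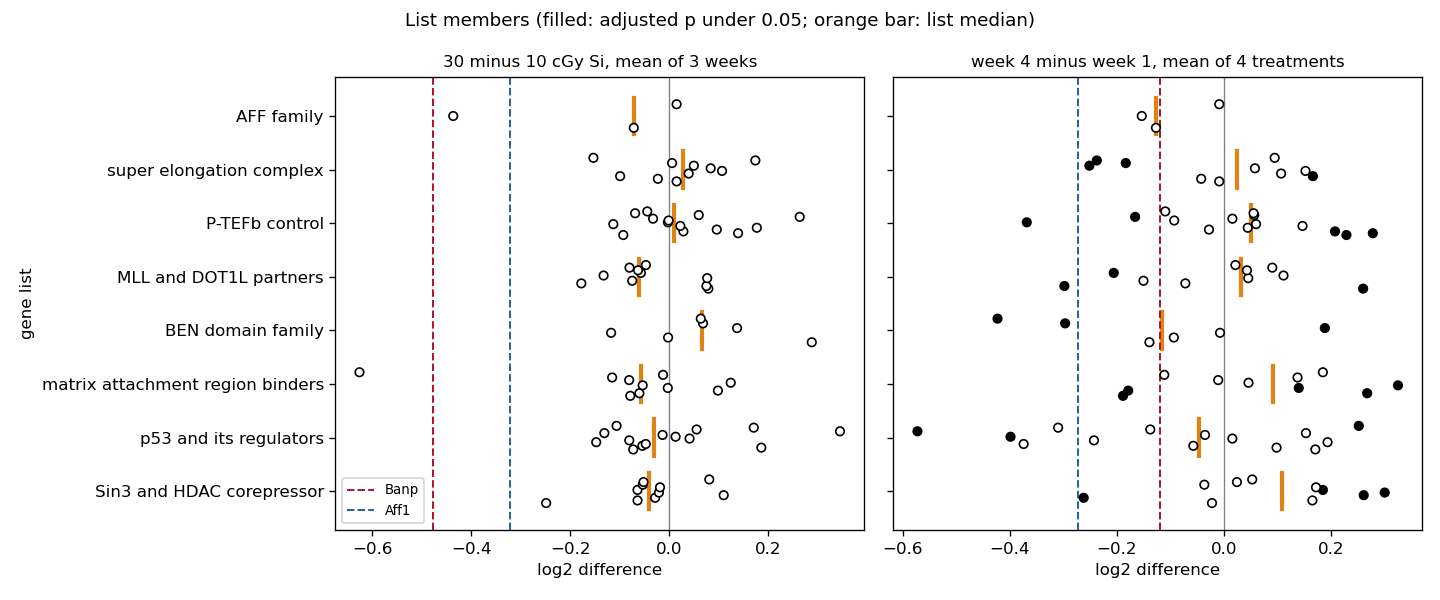
Log2 difference of each list member (points, filled where the adjusted p is under 0.05) and the list median (orange bar), for 30 minus 10 cGy Si over 3 weeks (left) and week 4 minus week 1 over 4 treatments (right), with Banp and Aff1 as dashed lines. On the left no list member is filled, where only 3 of 13174 genes tested passed. Most points there lie to the right of both dashed lines, which the choice of Banp and Aff1 by this difference brings about. On the right, members are filled on both sides of 0.

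Genes whose RefSeq promoter window holds CTCGCGAG were followed as carriers of the letters that Banp is known to bind. Of 280 such genes, 228 were on the array and 200 were tested. Between the silicon doses 0 were called, 56.5% lay above 0 (52.8% of all genes) and the median was 0.016 (0.0077 over all genes). From week 4 to week 12, when Banp fell, 0 were called, 61.0% lay above 0 (46.0% of all genes) and the median was 0.021 (−0.011 over all genes). From week 1 to week 4, 19.5% were called higher and 8.5% lower, against 11% and 14.8% of all genes. Whether Banp binds these promoters in the gland was not measured.

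Array medians lay between 5.04 and 5.25, and arrays correlated at 0.953 to 0.994, with sham week 1 replicate 3 and sham week 4 replicate 1 least like the rest. Markers of fat and epithelium were high in every gland, with white adipocyte markers averaging 10.8 to 11.6 (7 genes on the array), luminal markers 8.09 to 9.42 (8 genes) and basal markers 7.06 to 8.94 (7 genes). Markers of other tissues varied widely between single glands, from 4.44 to 10.5 for skeletal muscle (9 genes), 3.54 to 8.88 for B cells (7 genes) and 4.10 to 8.22 for T cells (7 genes).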

How the data were processed

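Each of the 37 samples of gland RNA was hybridised to 1 Affymetrix array. The authors deposited log2 expression values, and the submitters' processing notes name RMA and oligo (versions: not given in the sources used here). Values of 35556 probe sets ranged from 0.817 to 13.8 with no missing value and were not normalised again. The platform annotation gave 21218 probe sets 1 symbol and 1881 several, 12457 were unlisted, and only the first kind was used. Per gene the probe set with the highest mean was taken, and 13174 of 18820 genes with a mean above the 30th percentile (log2 4.04) were tested.

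A limma model (version 3.58.1, R 4.3.3) with 1 mean per group was fitted to all 37 arrays (lmFit, eBayes). Two-sided p-values were adjusted over all genes (Benjamini-Hochberg), and called means an adjusted p under 0.05. Values after ± are the model's SE unless SD is named. The number of arrays limits the precision. Members and lists were chosen with earlier results of these data known. Genes named from a list were those called in a comparison, or else up to 2 with the largest differences. For likeness, the 5 genes with the highest and the 3 with the lowest correlation were named. The fit, tested on simulated data with 200 of 13174 genes changed, recovered 85.6% of 1.5-fold changes for gamma against sham over 3 weeks and 47.6% of 1.25-fold changes. In the data this comparison called 0 genes, and with few genes changed the adjustment is stricter. These shares therefore do not give the sensitivity of that comparison. The replicate numbers were not used as a pairing. Of 198 same-numbered array pairs of different groups, 74 correlated above 0.1 after the group means were taken off. Such values alone cannot show whether a pairing exists, as differently numbered pairs are not set beside them. Alternatives were other filters, probe set means, quantile normalization, eBayes settings, array weights, a replicate block, smaller fits, tissue covariates and leaving arrays out.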

Additional observations from a re-analysis of the deposited data

Results flagged for a closer look

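In Aff1, every 10 cGy Si array lay above the sham mean of its week at weeks 1 and 4 and every one lay below it at week 12, with mean differences of 0.394, 0.236 and −0.0926. This change of side between weeks was not tested, because the silicon arrays chose the gene. At week 12 the arrays of both groups overlapped, with 10 cGy Si at 8.18, 8.06 and 8.14 and sham at 8.15, 8.36 and 8.16. The highest sham array raised the sham mean of that week to 8.22.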

How the results depend on the processing

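Among alternatives that changed the processing and left no array out, 2 ended a call or turned a sign. With the mean of its probe sets Aff1 was at −0.104 between weeks 4 and 1 and not called, and with quantile normalization its silicon mean against sham was −0.00306. Averaging only sham and gamma groups, chosen after seeing the data, put Banp at 0.0789 between weeks 4 and 1, and ended the calls between weeks 12 and 4 (Banp −0.320, Aff1 −0.200). Leaving out any 1 of the 37 arrays changed no call or sign of these comparisons. Banp then ranged from 0.293 to 0.376 for gamma against sham, from −0.365 to −0.291 between weeks 12 and 4, and from −0.530 to −0.428 between the silicon doses. Aff1 ranged from −0.298 to −0.255 between weeks 4 and 1, from −0.297 to −0.262 between weeks 12 and 4, and from −0.356 to −0.297 between the doses. The uncalled silicon mean against sham moved by over 1.5 times, from 0.0413 to 0.124 in Banp (without sham week 1 replicates 1 and 3 in turn) and from 0.00505 to 0.0407 in Aff1 (without sham week 1 replicate 1 and sham week 12 replicate 2). With the replicate number as a block, sham week 4 replicate 4 stands alone and adds nothing. Banp was then at −0.318 and Aff1 at −0.280 between weeks 12 and 4 (limma adjusted p = 0.0288 and 0.00176), and no call changed. With the filter at the 50th percentile, the silicon mean against sham called 1 gene in place of 0. Leaving out sham week 1 replicate 3 and sham week 4 replicate 1 together, also chosen after seeing the data, ended no call and put the silicon mean against sham of Banp at 0.133.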
